A study of Mus musculus with 74 samples.

Results

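The data compare 2 alleles of the DNA-cutting enzyme Cas9 in mice whose lung tumours each carried a pair of guide RNAs. In KT_H11_Cas9 mice Cas9 is constitutive, and in KT_H11_LSL-Cas9 mice it is Cre-activated. Mice were kept where the added spike-in cells summed to at least 200000 and where at least 5 tumours carried 2 inert guides, so that 37 of the 65 Cas9 mice of the series entered (74 mice in all, 9 of them without Cas9). The 37 were 20 of 45 constitutive and 17 of 20 Cre-activated mice. The sum left out 25 constitutive mice, all near a sum of 100000 cells, and the tumour minimum left out 3 Cre-activated mice.

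Every mouse, with or without Cas9, was of the background named KT, which carries the reporter R26 LSL-Tomato. Lentivirus carrying Cre recombinase, a barcode unique to the tumour and 2 guides started the tumours, and lungs were taken after about 3 months. The barcode and guides were read together from 32 µg of lung DNA, with 1 library per mouse. The Cas9 transgene lies at the H11 locus in both alleles. The protocol text writes LSL for both Cas9 lines, whereas the genotype given for each mouse separates KT_H11_Cas9 from KT_H11_LSL-Cas9, and the genotype was used here. The labels used here state neither viral dose nor the age of the mice.

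An LSL cassette is a transcriptional stop flanked by loxP sites, and Cre removes it by recombination. In a transduced cell Cre therefore switches on the reporter and, in the Cre-activated allele, Cas9. With the constitutive allele Cas9 protein is already present when the virus enters, whereas with the Cre-activated allele it is made only after Cre has acted. Cas9 then cuts the genes that the guides specify, and a tumour grows from the edited cell.

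The guides targeted 17 genes, 10 of them with 2 guides (suffixes V1 and V2) and 7 with 1. Either guide of a virus can stand in place 1 or place 2. The 5 inert guides (names beginning with safe, NT or EGFP) target none of these genes. A tumour with a gene guide beside an inert guide shows that gene alone, and an inert/inert tumour is the control within the same mouse. For every tumour the deposited table holds a read count and an estimate of its cells. Size compares, inside each mouse, the average log2 cells of the genotype in question with the average over inert/inert tumours (at least 5 tumours of each). Number is the log2 ratio of tumour counts, genotype to inert/inert, with 0.5 added to both counts, and it understates changes where tumours are few. Mice are the replicates, and unless another test is named, p-values come from 100000 permutations of mouse labels on a studentised difference, adjusted by Benjamini-Hochberg over all genotypes of a kind, and an adjusted p below 0.05 passes. Errors are standard errors over mice.

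The mice of the alleles differed in read depth, and in the kept mice the inert/inert tumours that serve as the base of every value were compared first. The 107642 tumours used were 59305 in constitutive and 48337 in Cre-activated mice. A constitutive mouse held 14 to 51 inert/inert tumours (median 24) and a Cre-activated mouse 8 to 47 (median 22), and these ranges overlap almost wholly. The log2 difference in inert/inert number was 0.24 ± 0.20 (adjusted p = 0.472, permutation, over 4 measures of the mice). Between LA and HC mice alone it was 0.58 (permutation p = 0.0117), and since this count is the denominator of every number, its part in the differences of number was not tested. Inert/inert size was 7.66 and 7.62 log2 cells (difference 0.04 ± 0.16, adjusted p = 0.792). Reads were more numerous in constitutive mice, by 1.45 ± 0.39 log2 (adjusted p = 0.00288), so that 1 read stood for a median of 6.74 cells in constitutive and 13.4 in Cre-activated mice, and part of the smallest Cre-activated tumours rest on few reads. The 4 KT mice kept, which lack Cas9, held 753 inert/inert tumours together. They are taken to show the make-up of the pool when nothing is cut, which assumes that all groups received the same pool. KT mice held a mean of 25974 tumours, against 2965 in constitutive and 2843 in Cre-activated mice. Inert/inert tumours had a geometric mean of 334 cells in KT mice, against 202 and 196. Mouse names begin with LA (14) or CM (6) in constitutive, HC (12) or MT (5) in Cre-activated and LA in the 4 KT mice. What the letters mean is not stated, and no letters occur in both alleles, so that letters and allele cannot be told apart.

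The largest difference between the alleles was in Pcna, the sliding clamp that tethers DNA polymerase during replication. In the 4 KT mice, tumours with the Pcna guide beside an inert guide outnumbered inert/inert tumours, at a number of 1.48 to 1.65. With constitutive Cas9 the number was -3.29 in the lowest mouse, -2.24 at the median and -0.52 in the highest. With Cre-activated Cas9 it was -1.96, -0.12 and 0.67. All 20 constitutive mice lay below the median Cre-activated mouse, 12 of them below every Cre-activated mouse, and all mice of both alleles lay below all 4 KT mice. The 20 constitutive mice held 117 such tumours in all (2 to 18 per mouse, median 4.5), the 17 Cre-activated mice 359 (4 to 43, median 20) and the 4 KT mice 2170. The difference between the alleles was -2.02 ± 0.24, or 0.247-fold (adjusted p = 0.00017, lower in the constitutive allele). By the letters of the mouse names, the mean number was -2.28 in LA and -1.94 in CM mice of the constitutive allele, and -0.20 in HC and -0.04 in MT mice of the Cre-activated allele, so that both sets of one allele lay below both sets of the other. Restricted to tumours of at least 5 reads, which bears on the unequal depth, the difference was -2.05.

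Lkb1, a kinase that activates AMPK and restrains growth when energy is low, was the next. Its number ranged from -0.97 to 0.89 in constitutive mice (median 0.00) and from 0.08 to 1.41 in Cre-activated mice (median 0.64). The ranges overlap, yet 12 of 20 constitutive mice lay below the lowest Cre-activated mouse. The difference was -0.70 ± 0.14, or 0.615-fold (adjusted p = 0.000425).

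Apc, a scaffold of the complex that degrades beta-catenin in the Wnt pathway, ranged from -0.83 to 0.50 (median -0.18) with constitutive and from -0.27 to 1.18 (median 0.41) with Cre-activated Cas9. Of the 20 constitutive mice, 19 lay below the Cre-activated median. The difference was -0.50 ± 0.13 (0.708-fold, adjusted p = 0.00283). It missed the threshold among tumours of at least 100, 200 or 1000 cells (-0.27, -0.37 and -0.91, adjusted permutation p from 0.13 to 0.228). By letters, the mean number of Apc was -0.15 ± 0.09 in LA and -0.01 ± 0.16 in CM mice of the constitutive allele. In the Cre-activated allele it was 0.50 ± 0.13 in HC and 0.14 ± 0.13 in MT mice. CM and MT mice thus lay close, and HC mice stood highest. Keap1, the adaptor that marks the oxidative-stress factor NRF2 for degradation, ranged from -0.33 to 1.22 (median 0.48) and from 0.08 to 1.68 (median 0.88). Again 19 of 20 constitutive mice lay below the Cre-activated median, and the ranges overlap. The difference was -0.47 ± 0.13 (0.721-fold, adjusted p = 0.00484). Among tumours of at least 1000 cells neither Keap1 (-0.53) nor Lkb1 (-0.47) passed, whereas Pcna did (-1.47).

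**Figure D1:**
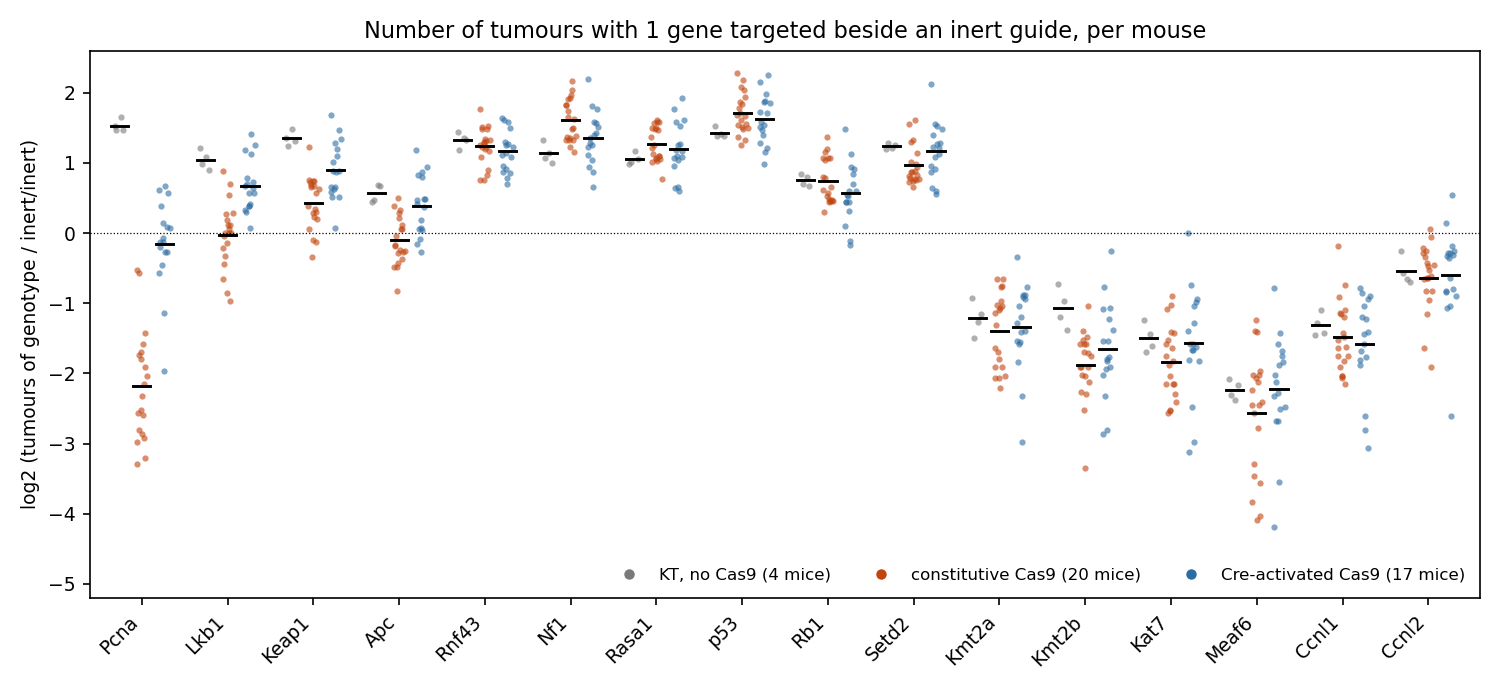
Number of tumours with 1 gene targeted beside an inert guide, as log2 over inert/inert tumours in that mouse; each point is a mouse (4 KT, 20 constitutive, 17 Cre-activated) and bars are means. For Pcna the 20 constitutive mice reach from -3.29 to -0.52 and the 17 Cre-activated mice from -1.96 to 0.67, all below the 4 KT mice.

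These 4 genes were lower in the constitutive allele, 4 of 17 tested (23.5%), and 0 of 17 (0%) were higher. In either direction 5 genes had an unadjusted permutation p under 0.05, the fifth being Nf1, a brake on RAS signalling (0.25 ± 0.11, adjusted p = 0.111). The scale bears on this split. With the number taken relative to all tumours of a mouse instead of inert/inert tumours, the median of the 17 differences moved by 0.14, from -0.05 to 0.09, and 6 genes were higher and 4 lower. On that scale Nf1 (0.39), Rb1 (0.32), p53 (0.23), Rnf43 (0.21) and Rasa1 (0.21) passed as higher in the constitutive allele, while Pcna, Lkb1, Keap1 and, with the loss at cell minimums given above, Apc passed as lower on both scales.

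By role, the metabolism and stress genes Lkb1 and Keap1 both passed as lower in constitutive mice, with a median difference of -0.59 against -0.05 over all 17 genes. That list holds only these 2 genes, so its median restates their own values. The lists were chosen with earlier results of these data known, and none was tested as a set. Of the Wnt genes, Apc passed and Rnf43, a ubiquitin ligase that removes Wnt receptors, did not (0.07 ± 0.09). Neither RAS and MAPK gene passed, with Nf1 as given and Rasa1, another GTPase-activating brake on RAS, at 0.07 ± 0.11. Of the p53 and cell cycle genes, p53, the stress-response transcription factor, was at 0.09 ± 0.11 and Rb1, which holds cells before S phase, at 0.18 ± 0.12, and neither passed. None of the 5 chromatin genes passed (median -0.23). Among these, the H3K36 methyltransferase Setd2 was at -0.20 ± 0.12, and the H3K4 methyltransferases Kmt2a and Kmt2b were at -0.05 ± 0.19 and -0.23 ± 0.20. The histone acetyltransferase Kat7 and Meaf6, a subunit of its complexes, were at -0.27 ± 0.22 and -0.35 ± 0.27. The cyclin L genes Ccnl1 and Ccnl2, linked to RNA splicing, were at 0.10 ± 0.20 and -0.05 ± 0.20. For these genes a miss of the threshold leaves wide room: 2 standard errors to each side reach from -0.90 to 0.20 for Meaf6 and from -0.11 to 0.26 for Rnf43.

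Pcna belongs to the 7 genes with 1 guide, and the rest of these genes did not share its difference. None of the other 6 passed, and their median was -0.14 (from -0.35 for Meaf6 to 0.10 for Ccnl1). Of the 10 genes with 2 guides 3 were lower (median 0.06). Tumours of these 6 genes were few, at medians of 4 to 15 per mouse in either allele.

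Taken guide by guide, 4 of 27 guides were lower in constitutive mice (14.8%) and 0 higher (0%), with 8 guides at an unadjusted permutation p under 0.05 in either direction. Besides the Pcna guide these were Lkb1_V1 (-1.02 ± 0.16), Keap1_V2 (-0.90 ± 0.18) and Apc_V2 (-0.62 ± 0.15), with adjusted p between 9e-05 and 0.00243. The partner guides pointed the same way but did not pass: Lkb1_V2 at -0.44 ± 0.17 (adjusted p = 0.0718), Keap1_V1 at -0.25 ± 0.14 (adjusted p = 0.251) and Apc_V1 at -0.38 ± 0.18 (adjusted p = 0.15). Against KT the same guides ran furthest down in the constitutive allele, at -1.48 for Lkb1_V1 and -0.69 for Lkb1_V2, -1.78 for Keap1_V2 and -0.36 for Keap1_V1, and -0.98 for Apc_V2 and -0.26 for Apc_V1. No test of 1 guide against its partner was made. The place of the guide also differed: Pcna tumours with the guide in place 1 over those with it in place 2 stood at a log2 ratio of 0.61 in KT, -0.07 in Cre-activated and -0.68 in constitutive mice, over summed tumours and with no test.

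The comparison with the 4 KT mice shows how far each allele lay from a genotype's uncut share, if all groups received the same pool. Both alleles were set against the same KT mice, by exact permutation of mouse labels. With constitutive Cas9, 6 of 17 genes were lower than KT (35.3%) and 3 higher (17.6%), and with Cre-activated Cas9 1 was lower (5.88%) and 0 higher (0%). In either direction 10 and 5 genes had an unadjusted exact permutation p under 0.05.

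Pcna was lower in both alleles, by -3.71 ± 0.18 (0.0764-fold, adjusted p = 0.000533, exact permutation, 20 against 4 mice) and by -1.69 ± 0.16 (0.31-fold, adjusted p = 0.00284, exact permutation, 17 against 4 mice). These p-values rest on the smallest that the exact permutation allows, 9.41e-05 and 0.000167. The depletion was thus measured in every mouse of both alleles and the difference between the alleles was the -2.02 given above.

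The other 5 genes lower than KT with constitutive Cas9 were Lkb1 (-1.07 ± 0.13), Keap1 (-0.92 ± 0.10), Kmt2b (-0.82 ± 0.18), Apc (-0.67 ± 0.10) and Setd2 (-0.27 ± 0.06), with adjusted exact permutation p from 0.000533 to 0.0268. All 20 constitutive mice lay below all 4 KT mice for Lkb1 and for Keap1, and 19 of 20 did for Kmt2b and for Apc. In the Cre-activated allele the same genes stood at -0.37 ± 0.11 (Lkb1), -0.45 ± 0.11 (Keap1), -0.59 ± 0.22 (Kmt2b), -0.17 ± 0.12 (Apc) and -0.07 ± 0.10 (Setd2), and none passed (adjusted exact permutation p from 0.0748 to 0.659). For Lkb1 and Keap1, 13 of 17 Cre-activated mice lay below all KT mice. For Kmt2b the difference between alleles was -0.23 ± 0.20 (adjusted p = 0.43), and among tumours of at least 1000 cells the constitutive value against KT was 0.20. At that minimum the 20 constitutive mice held 9 Kmt2b and 31 inert/inert tumours in all, so that the pseudocount sets part of the 0.20.

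The genes higher than KT with constitutive Cas9 included Nf1 (0.47 ± 0.10) and p53 (0.29 ± 0.07), with adjusted exact permutation p of 0.0103 and 0.026. In the Cre-activated allele they stood at 0.22 ± 0.12 and 0.20 ± 0.09, not past the threshold (adjusted exact permutation p = 0.248 for each). Setd2, Nf1 and p53 each missed the threshold with constitutive Cas9 when KT mouse 2, 3 or 4 was left out (adjusted exact permutation p of 0.0588 to 0.0629). Relative to all tumours, the median of the 17 genes moved by 0.32 with constitutive and by 0.18 with Cre-activated Cas9, and the calls became 5 lower and 6 higher, and 2 lower and 4 higher. Setd2 was then at 0.05 and no longer lower.

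To ask whether genes keep their order from one allele to the other without sharing controls, the constitutive allele was set against the 4 KT mice above and the Cre-activated allele against the 5 KT mice of the lower spike-in sum. Across the 17 genes Spearman's rho was 0.83, and the least-squares slope of Cre-activated on constitutive effects was 0.47 (ratio of standard deviations 0.49). The sign was the same in 16 of 17 genes. With the KT sets exchanged the values were 0.77 and 0.45. Without Pcna, which lies far from the rest, rho was 0.80 and the slope 0.52 over 16 genes. These are descriptions across genes, which share libraries and each mouse's inert/inert tumours.

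Across the 95 pairs with at least 3 tumours per mouse on average, rho was 0.89 and the slope 0.47, and without the 10 pairs that hold Pcna 0.84 and 0.49 over 85 pairs. Within an allele, mice whose names begin with different letters gave slopes nearer 1: 0.94 for CM on LA mice and 0.85 for MT on HC mice over genes, and 1.02 and 0.99 over pairs. Set against all constitutive mice, HC mice gave a slope of 0.48 and MT mice 0.45 over genes, and 0.47 and 0.63 without Pcna. The order of effects was thus shared, and their size on the log2 scale was smaller in the Cre-activated allele in both sets of mice.

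**Figure D2:**
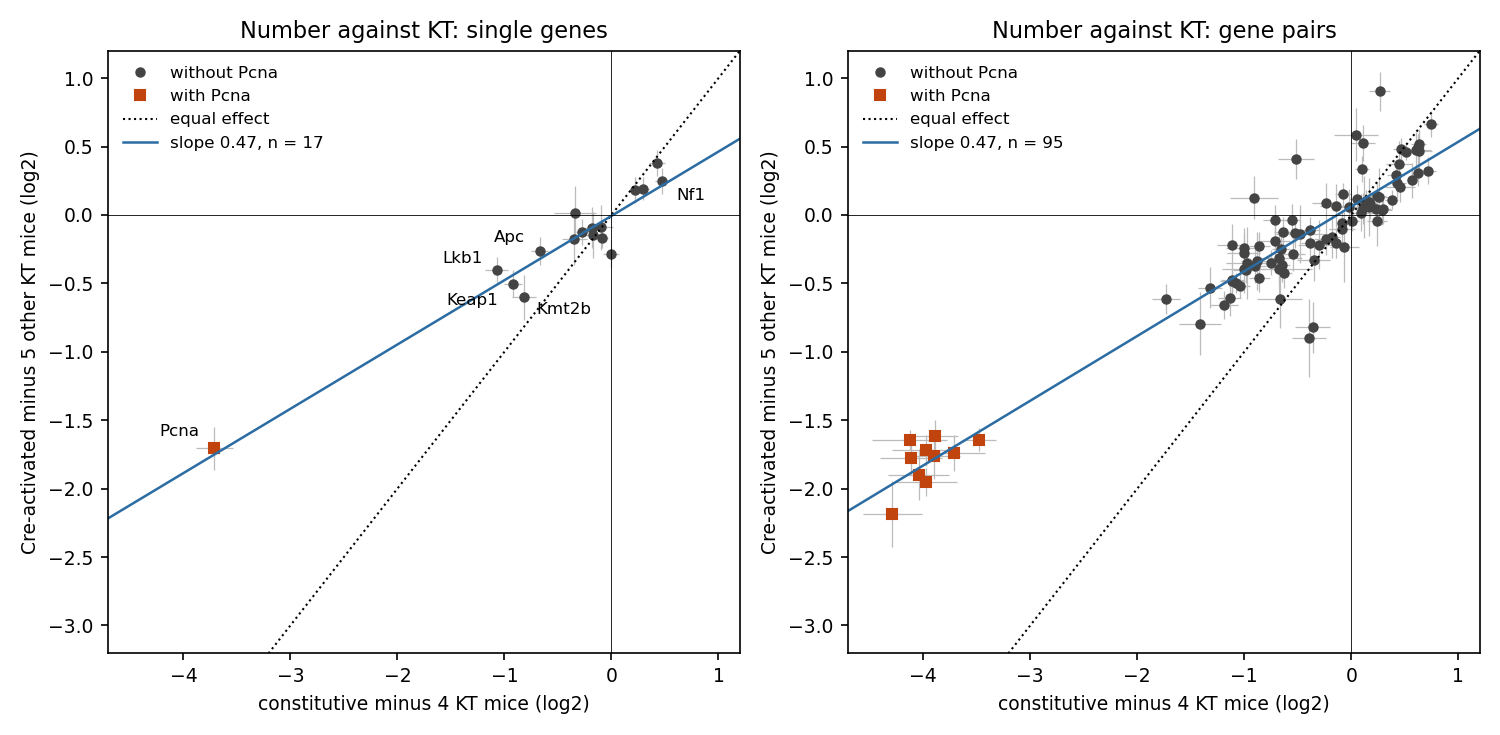
Number of tumours against KT in the constitutive (x, minus 4 KT mice) and Cre-activated allele (y, minus 5 other KT mice), log2, for 17 genes (left) and 95 pairs (right); bars are standard errors over the mice of the allele. Points follow the fitted line of slope 0.47 rather than the dotted line of equal effect, and genotypes with Pcna (squares) lie lowest in both alleles.

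The same genes marked the pairs. Of 95 pairs, 32 were lower in the constitutive allele (33.7%) and 3 higher (3.16%), with 47 at an unadjusted permutation p under 0.05. The count fell with a minimum of cells per tumour, to 22 of 83 pairs at 100 cells, to 1 of 57 at 200 cells (Keap1 with Lkb1) and to 0 of 21 at 1000 cells (studentised permutation, 1 unadjusted), with fewer tumours and fewer pairs tested each time. Relative to all tumours the split was 31 lower and 15 higher. All 10 pairs with Pcna were lower, and they were the 10 largest differences. Beside Pcna, 11 of 12 pairs with Lkb1, 9 of 14 with Keap1 and 5 of 11 with Apc were lower, these counts including pairs that hold 2 of them. In all, 29 of the 41 pairs with at least 1 of the 4 genes were lower and 0 higher, against 3 lower and 3 higher of the other 54. The 4 genes were picked by their own calls in these same mice. Numbers of genes and pairs also share each mouse's inert/inert count, so this split is a description and no separate support. Among the 3 lower pairs of the other 54, named after their values were seen, were Kmt2b with Setd2 (-0.89 ± 0.22) and Kmt2a with Setd2 (-0.44 ± 0.14).

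For Pcna with Rasa1 the number was -6.38 in the lowest constitutive mouse, -3.26 at the median and -1.58 in the highest, against -1.44, -1.20 and -0.18 with Cre-activated Cas9. No Cre-activated mouse lay below the highest constitutive mouse, so the ranges do not overlap, as held for no gene alone. The 20 constitutive mice held 54 such tumours, with 0 in 6 mice, and the 17 Cre-activated mice 163. The difference was -2.42 ± 0.36 (adjusted p = 9.5e-05).

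The other named Pcna pairs differed by -2.34 ± 0.31 (with Setd2), -2.33 ± 0.33 (Rb1), -2.33 ± 0.24 (Keap1), -2.26 ± 0.34 (Apc), -2.18 ± 0.30 (Rnf43), -2.13 ± 0.37 (Lkb1), -2.07 ± 0.31 (Nf1) and -1.86 ± 0.18 (p53), with adjusted p from 9.5e-05 to 0.000146. These values lie near the -2.02 of Pcna alone. Constitutive mice with 0 tumours of the pair numbered from 0 (p53) to 7 (Apc) of 20, so that the pseudocount sets part of these values. With a pseudocount of 1 the pair with Apc stood at -1.86.

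Keap1 with Lkb1 was the largest difference without Pcna; it lies outside the rule for named pairs and was chosen after its value was seen. The number ranged from -2.03 to 0.17 in constitutive mice (median -0.92) and from -0.89 to 0.80 in Cre-activated mice (median 0.05), and 275 and 412 tumours were summed. The difference was -1.06 ± 0.17 (0.48-fold, adjusted p = 0.000146), beside -0.47 for Keap1 and -0.70 for Lkb1 alone. Across the 95 pairs the difference between alleles followed the sum of the differences of the 2 genes (Pearson's r 0.95, and 0.83 over the 85 without Pcna), with a median departure from the sum of -0.01. That is a description across pairs that share genes and mice.

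The 3 pairs higher in the constitutive allele were Nf1 with p53 (0.37 ± 0.12, adjusted p = 0.0113), Rb1 with p53 (0.35 ± 0.14, adjusted p = 0.0335) and Nf1 with Rasa1 (0.30 ± 0.12, adjusted p = 0.0369). In constitutive mice Nf1 with p53 ranged from 0.77 to 1.93 (median 1.54) and in Cre-activated mice from 0.23 to 1.61 (median 1.02), so that these groups overlap. Leaving out any 1 of the 37 mice kept the call of Nf1 with p53, whereas Rb1 with p53 kept it in 30 and Nf1 with Rasa1 in 23 of 37. Each of the 3 passed in 7 of 13 other settings, and which setting ends a call varied with the pair.

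**Figure D3:**
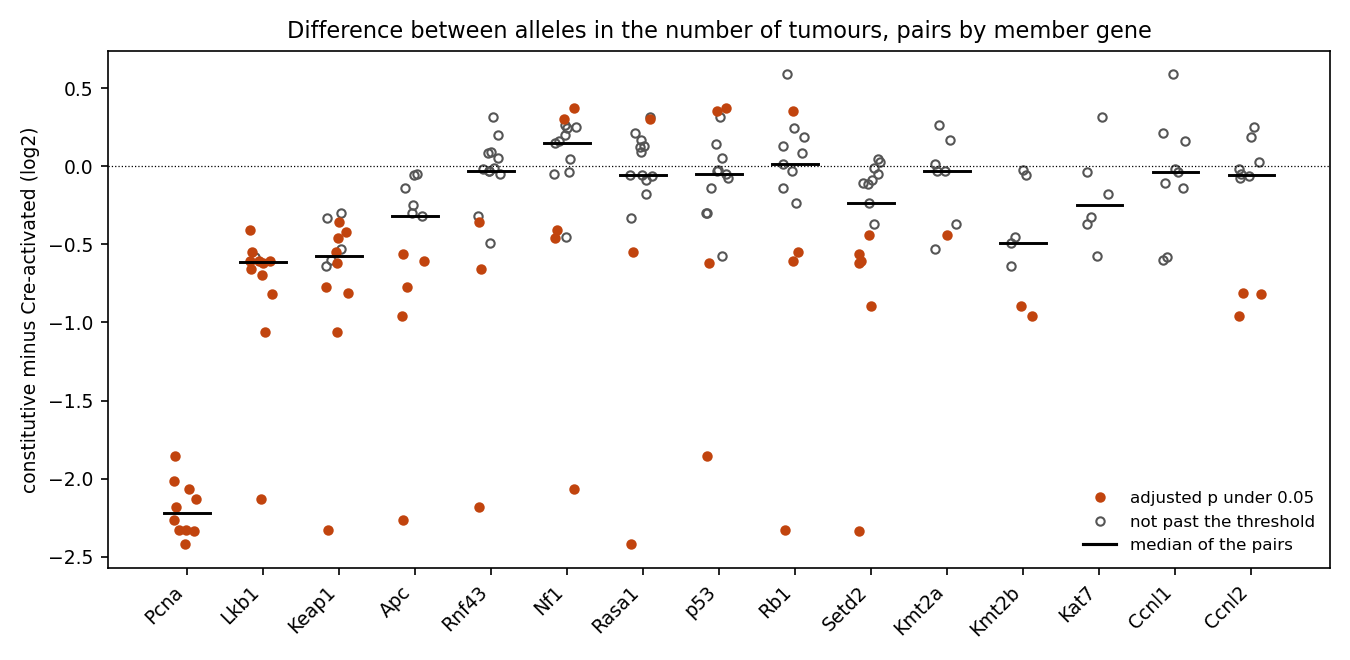
Difference between the alleles in the number of tumours (constitutive minus Cre-activated, log2) for the 95 pairs tested, drawn under each of their 2 genes; filled points passed and bars are medians. The 10 pairs with Pcna lie from -2.42 to -1.86, and the pairs with Lkb1 have a median of -0.61.

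In size, of 16 genes tested, 0 were larger (0%) and 0 smaller (0%) in the constitutive allele, and 3 had an unadjusted permutation p under 0.05. These were Rasa1 (0.29 ± 0.10), Setd2 (0.24 ± 0.09) and Kmt2b (-0.55 ± 0.20), each at an adjusted p of 0.057. With mice of all spike-in sums 3 genes were larger in the constitutive allele (Rasa1, Setd2 and Nf1). Rasa1 tumours ranged from -0.29 to 0.90 in constitutive mice (median 0.19) and from -0.99 to 0.42 in Cre-activated mice (median -0.05), and the ranges overlap widely. Kmt2b rests on 18 and 13 mice with 5 or more tumours. Leaving out 1 mouse at a time gave 0 to 3 calls among these 3 genes, with Rasa1 past the threshold without constitutive mouse 3, 5, 10, 13, 14, 19 or 20 and without Cre-activated mouse 2, 4, 10 or 18. Meaf6 had values in 8 and 9 mice and was not tested.

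Pcna tumours that remained were small in both alleles. Their size was -0.39 ± 0.21 in the 10 constitutive mice with at least 5 such tumours and -0.32 ± 0.10 in 16 Cre-activated mice, below inert/inert tumours in 8 of 10 and 15 of 16 mice. Only the latter passed by sign flips over mice (adjusted p = 0.0396, against 0.221). The difference between alleles was -0.07 ± 0.23 (adjusted p = 0.951), and 2 standard errors to each side reach from -0.53 to 0.40. Tumours of at least 1000 cells made up 1.71% of the 117 constitutive and 4.18% of the 359 Cre-activated Pcna tumours, against 5.92% and 4.55% of inert/inert tumours.

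Within each allele, size was tested by 2-sided sign flips over mice (100000 resamples). With constitutive Cas9, 5 of 16 genes were larger than inert/inert (31.2%) and 0 smaller (0%), with 5 at an unadjusted p under 0.05. Among them were Nf1 (0.32 ± 0.07, above 0 in 17 of 20 mice, adjusted p = 0.0028), Setd2 (0.21 ± 0.06, 17 of 20, adjusted p = 0.0144), p53 (0.20 ± 0.06, 14 of 20, adjusted p = 0.0144) and Rasa1 (0.19 ± 0.06, 14 of 20, adjusted p = 0.0216). With Cre-activated Cas9 the same genes stood at 0.11 ± 0.10, -0.02 ± 0.06, 0.08 ± 0.08 and -0.10 ± 0.07, and 1 gene was larger (6.25%) and 1, Pcna, smaller (6.25%). A call in 1 allele and not in the other is no test of a difference; that test gave the 0 of 16 above. Lkb1, Apc and Keap1, whose numbers differed, had sizes within 0.06 of inert/inert in both alleles, and none passed.

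Of pairs, 28 of 68 were larger than inert/inert (41.2%) and 1 smaller (1.47%) with constitutive Cas9, against 3 larger (3.9%) and 3 smaller (3.9%) of 77 with Cre-activated Cas9. The smaller pair in the constitutive allele was Ccnl2 with Keap1 (-0.31 ± 0.10, 11 mice, adjusted p = 0.0341). All 3 smaller pairs of the Cre-activated allele held Pcna: with Apc (-0.65 ± 0.12, below in 13 of 13 mice), with Lkb1 (-0.43 ± 0.11, 12 of 15) and with Rasa1 (-0.40 ± 0.12, 11 of 16), at adjusted p of 0.00898 to 0.0409. No pair with Pcna had 10 constitutive mice with 5 tumours, so these sizes could not be compared between the alleles.

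Of the 6 largest size effects of pairs in each allele, those of the Cre-activated allele include these 3 Pcna pairs. In the constitutive allele they include Rb1 with p53 (0.95 ± 0.10), Kmt2a with Rb1 (0.61 ± 0.24, 12 mice, adjusted p = 0.0231), Apc with Lkb1 (0.47 ± 0.25, above 0 in 10 of 18 mice, adjusted p = 0.157) and Nf1 with p53 (0.46 ± 0.09, 19 of 20 mice, adjusted p = 0.00085).

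Rb1 with p53 was the pair whose size differed between the alleles, 1 of 63 tested (1.59%), with 0 smaller in the constitutive allele (0%) and 5 pairs at an unadjusted permutation p under 0.05. With mice of all spike-in sums 4 of 66 pairs differed, all larger in the constitutive allele. In constitutive mice its size was 0.20 in the lowest, 0.92 at the median and 2.13 in the highest mouse. In Cre-activated mice it was -0.73, 0.11 and 0.78, and in the 4 KT mice -0.26 to 0.09. All 20 constitutive mice lay above the Cre-activated median and above all KT mice, and 13 lay above every Cre-activated mouse. The difference was 0.76 ± 0.15, or 1.69-fold (adjusted p = 0.00126). By the median instead of the mean log2 cells it was 0.51 (adjusted p = 0.0548).

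Neither gene alone showed such a size: Rb1 stood at 0.04 ± 0.07 and -0.05 ± 0.11, and p53 at 0.20 ± 0.06 and 0.08 ± 0.08, in constitutive and Cre-activated mice. The size of the pair minus the sum of its genes, taken in each mouse, was 0.71 ± 0.10 and 0.16 ± 0.14. That departure missed the threshold between alleles (0.55 ± 0.17, adjusted permutation p = 0.0535). Tumours of at least 1000 cells were 23.1% of the 1091 Rb1 and p53 tumours with constitutive, 9.85% of the 650 with Cre-activated Cas9 and 15.7% of the 1054 in KT mice. The same shares of inert/inert tumours were 5.92%, 4.55% and 17.5%. Viruses that carry p53 in place 1 and Rb1_V1 in place 2 held the highest values, a class chosen for its values in these same mice and so given as a description with no test. Their size was 1.77 ± 0.16 in 20 constitutive, 0.68 ± 0.17 in 15 Cre-activated and -0.18 ± 0.11 in 4 KT mice. The other viruses for these genes gave 0.41 ± 0.09, 0.05 ± 0.11 and -0.04 ± 0.09. Without the first class the difference between alleles was 0.36 and missed the threshold (adjusted permutation p = 0.261).

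**Figure D4:**
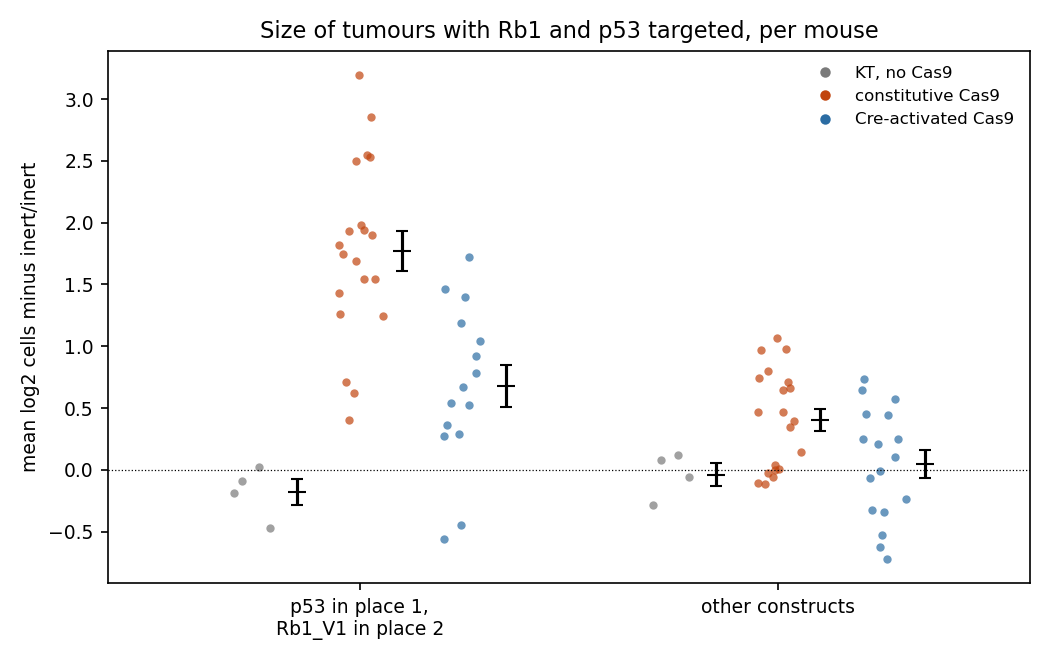
Size of tumours with Rb1 and p53 targeted, in log2 cells relative to inert/inert tumours in that mouse, for viruses with p53 in place 1 and Rb1_V1 in place 2 (left) and all others (right); points are mice with at least 5 such tumours, and marks are means with standard errors. Means on the left are 1.77 (constitutive), 0.68 (Cre-activated) and -0.18 (KT).

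In size, across 16 genes rho was 0.40 and the slope of Cre-activated on constitutive size 0.33, and across 63 pairs 0.51 and 0.30. These too are descriptions over genotypes that share mice and inert/inert tumours. Within an allele, CM on LA mice gave 0.56 and 0.81 over genes and 0.62 and 1.12 over pairs, and MT on HC mice 0.56 and 0.91 over genes and 0.26 and 0.24 over pairs, so that the slope over pairs varied as much among Cre-activated mice as between alleles. Sizes of pairs were above 0 in 53 of 63 with constitutive and in 50 of 63 with Cre-activated Cas9, at medians of 0.20 and 0.11, beside median standard errors of 0.11 and 0.12.

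**Figure D5:**
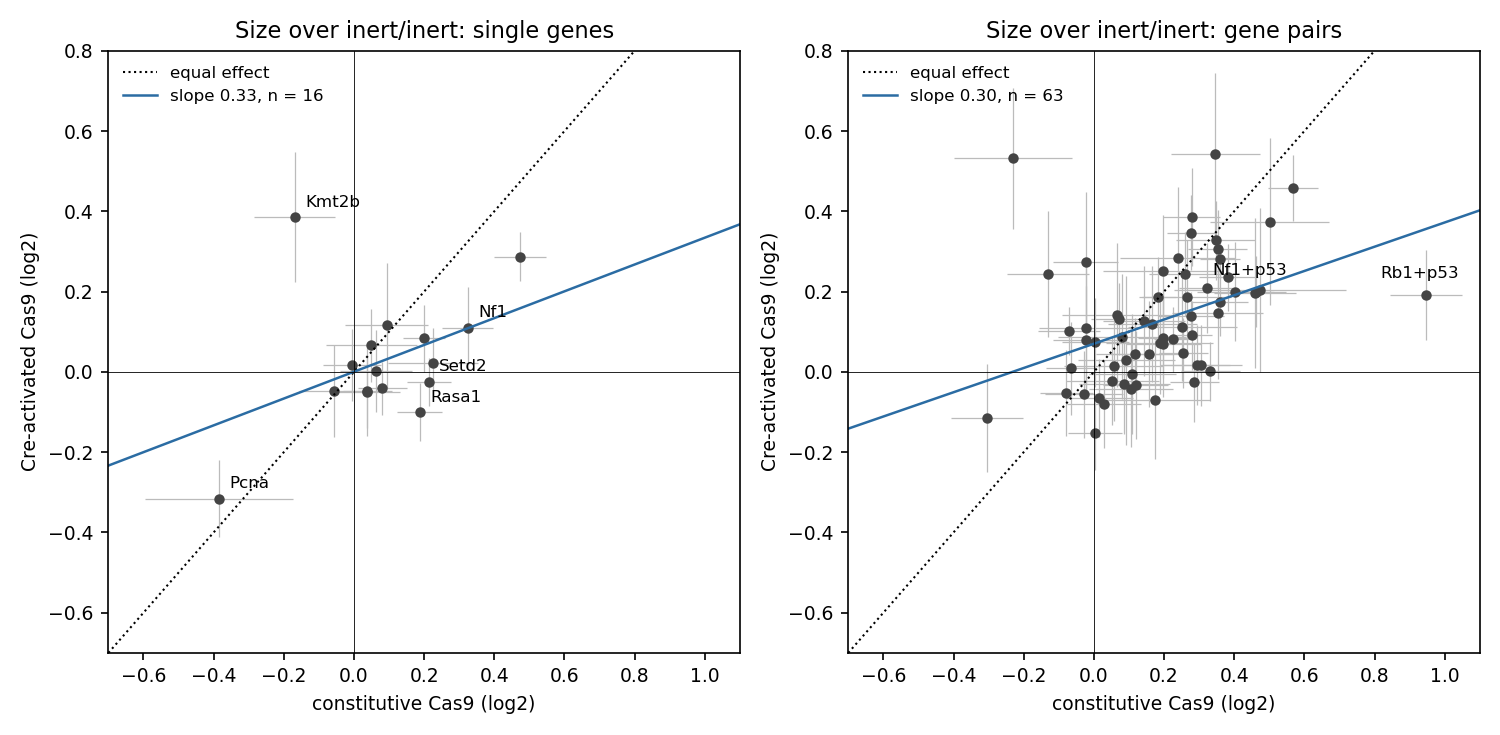
Size over inert/inert tumours (log2) in the constitutive (x) and Cre-activated allele (y) for 16 genes (left) and 63 pairs (right); bars are standard errors over mice. The fitted slopes are 0.33 and 0.30, the dotted line marks equal effect, and Rb1 with p53 lies at 0.95 and 0.19.

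The departure of a pair from the sum of its genes in size, computed in each mouse, was compared for 62 pairs. It was lower in the constitutive allele for 2 of them (3.23%) and higher for 0 (0%), with 10 at an unadjusted permutation p under 0.05.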

How the data were processed

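Per the labels, lung DNA of each mouse gave 1 barcode library. The deposited table lists unnormalized read counts per tumour. Its second value is a signal, cell numbers that the authors scaled from reads by spike-in cells, with 1 factor per mouse. No aligner or caller is stated in the labels used here. Spike-in entries were dropped, as were 1490 tumours whose virus carried 1 guide at both positions. NE, a guide name the labels do not explain, was counted neither as inert nor as a gene.

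Sizes, numbers and permutation tests are as defined in the results, with at least 10 mice of each allele per test. The tests were run on simulated data whose noise was independent between genotypes and mice, apart from the inert/inert counts that numbers share. That run did not cover shared inert/inert sizes, the letters of mouse names or mice without a value. The smallest permutation p is 1e-05. The design named all genes, pairs past the threshold (up to 10 in each direction) and the 6 largest sizes per allele. Genes, lists and tests were chosen with earlier results of these data known, and some results are not reported here. Replicates are mice as labelled, so p-values measure spread among them. Counting errors of PCR reads without molecular identifiers are not covered by the intervals. Software was matplotlib 3.10.9, scipy 1.17.1, pandas 2.3.3 and numpy 2.4.6 under Python 3.11.15.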

Additional observations from a re-analysis of the deposited data

Results flagged for a closer look

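These results differed between the alleles by the permutation test of the difference itself (constitutive minus Cre-activated, log2, 20 against 17 mice). In number they were Pcna (-2.02), Lkb1 (-0.70), Apc (-0.50, not past the threshold among tumours of at least 100, 200 or 1000 cells) and Keap1 (-0.47) beside an inert guide, and among guides Lkb1_V1 (-1.02), Keap1_V2 (-0.90) and Apc_V2 (-0.62). In number of pairs they were Pcna with Rasa1 (-2.42), Setd2 (-2.34), Rb1 (-2.33), Keap1 (-2.33), Apc (-2.26), Rnf43 (-2.18), Lkb1 (-2.13), Nf1 (-2.07) and p53 (-1.86), Keap1 with Lkb1 (-1.06), and, higher in the constitutive allele, Nf1 with p53 (0.37), Rb1 with p53 (0.35) and Nf1 with Rasa1 (0.30). In size it was Rb1 with p53 (0.76).

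Among the 4 KT mice, 1 mouse stood apart from the other 3 in the size of Ccnl1 (the lowest, -0.41) and 1 in the size of Rb1 (the highest, 0.054), among the 16 named genes in size and number, and chance alone sets a sample apart by this measure in about 1 of 20 groups.

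The 25 constitutive mice with the lower spike-in sum enter the tests above only where mice of all spike-in sums are named. In them tumours with Rb1 and p53 had a size of 0.92 ± 0.11 (0.05 to 2.53, median 0.73), and 19 of 25 lay above all 5 KT mice of that sum (-0.32 to 0.43).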

How the results depend on the processing

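No paired analysis was possible because the labels give no numbers that pair mice of the 2 alleles. Settings changed after the data were seen were the leaving out of each mouse, cell minimums for guides and for sizes within an allele, agreement without Pcna or with KT mice exchanged, and Rb1 with p53 without 1 class of viruses. Of 2538 alternative values of single genes and pairs, 73 lost and 49 gained a call, 8 turned in direction as given below, and 2408 kept their side of the threshold, with 130 uncalled values changing sign. Of these, 1783 values only left out 1 mouse, and 30 of them lost and 20 gained a call. In the 755 values of other settings, 43 lost and 29 gained a call, and 8 turned. The causes were not tested.

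A minimum of 100, 200 or 1000 cells gave 22 of 83, 1 of 57 and 0 of 21 pairs differing in number (35 of 95 without a minimum, permutation, 1 at an unadjusted p under 0.05 for the last), and 1000 cells left 1 gene, Pcna, of 4. Apc missed the threshold at 100, 200 and 1000 cells, and Lkb1 and Keap1 at 1000. At 200 cells 1 guide passed instead of 4, and at 100 and at 200 cells 1 size interaction, higher in the constitutive allele, instead of 2 lower. Genes differing in number were 10 relative to all tumours.

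Calls against KT with Cre-activated Cas9, 1 as reported, were 5 with NE as inert, 6 relative to all tumours, 0 with numbers summed over mice (1 at an unadjusted exact permutation p under 0.05), 2 with same-guide viruses, and 2, 3 and 5 at 100, 200 and 1000 cells. With constitutive Cas9, 9 as reported, they were 0 when summed (6 unadjusted) and 5 at 1000 cells, and 6 to 9 without 1 KT mouse. At 1000 cells values against KT turned for Ccnl1 (1.43) and Kmt2a (1.18) with Cre-activated and for Kmt2b (0.20), Meaf6 (1.93) and Setd2 (0.22) with constitutive Cas9, and relative to all tumours for Rb1 (0.32), Rnf43 (0.23) and Setd2 (0.049). Constitutive mice held 31 and Cre-activated mice 18 inert/inert tumours of at least 1000 cells in all. The pseudocount therefore sets part of the values at 1000 cells.

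Without 1 mouse, genes differing in size numbered 0 to 3 and in number 4 to 5, and pairs 33 to 39 in number. With NE as inert 2 genes differed in size, and with all spike-in sums 3. Pairs differing in size, 1 as reported, were 2 for LA against HC mice, 4 with all spike-in sums and 0 by the median (3 unadjusted). For LA against HC mice inert/inert number differed by 0.58 (permutation p = 0.0117). Mice with at least 20 inert/inert tumours left under 10 in an allele and gave no test of genes or pairs.

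The rank correlation (Spearman) across pairs in number was 0.855 for LA against HC mice, 0.919 at 200 cells and 0.842 without Pcna, and the slope 0.447 for mice with at least 20 inert/inert tumours and 0.597 at 200 cells. Across genes in number the rank correlation was 0.767 with KT exchanged and 0.902 with NE as inert, and the slope 0.425 with all spike-in sums and 0.520 without Pcna. In size the rank correlation across genes was 0.673 at 200 cells, the slope 0.501 with at least 10 tumours, 0.507 at 200 cells and 0.0993 with at least 5 reads, and the slope across pairs 0.413 for LA against HC mice.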

Other observations

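The 25 constitutive mice that the spike-in sum leaves out offer values for the same genes, each set against the 5 KT mice of the lower sum, and no test was made. Pcna was at -4.53 ± 0.19 against these KT mice, with 25 of 25 mice below all of them. Lkb1 stood at -1.28 ± 0.12 and Keap1 at -1.02 ± 0.11 (24 of 25 mice each), Kmt2b at -1.26 ± 0.15 (25 of 25) and Apc at -0.67 ± 0.10 (23 of 25). Nf1 was at 0.36 ± 0.11, with 20 of 25 mice above all KT mice. In the 20 constitutive mice used above, the same genes were at -3.71, -1.07, -0.92, -0.82, -0.67 and 0.47 against their own KT mice. For p53 the 25 mice gave 0.17 ± 0.10, with 14 above and 7 below all KT mice, beside 0.29 in the 20. Setd2 was at -0.35 ± 0.10 in the 25 mice (17 below all KT mice), beside -0.27. Kat7 (-0.71 ± 0.21) and Meaf6 (-0.78 ± 0.24), each with 1 guide, lay further down than in the 20 mice (-0.35 and -0.34).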
